A study of Mus musculus with 8 samples.

Results

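The genes of the proteasome were followed in the brains of mice given methanol. A probe was taken as a member when its gene symbol on the array platform began with Psm, one of the letters a to g and a digit. Psmb8, Psmb9 and Psmb10, the catalytic subunits of the interferon-induced immunoproteasome, were left out of the members. The rule took 63 probes for 42 genes, out of 25697 probes for 16593 named genes on the array. A probe was compared when its signal stood above background, with a detection p under 0.05, on at least 4 of the 8 arrays, which left 54 member probes for 40 genes among 11938 probes in all. Of the 9 member probes left out, 8 were detected on 0 arrays and 1 on 1 array. Psma1 and Psma6, both of the alpha ring of the core, had no other probe and were not compared. No named probe was found for Psma8, Psmb11, Psmd3, Psme2b, Psmf1 or Psmg4.

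Whole mouse brain was hybridized to Illumina MouseRef-8 arrays, which capture labeled RNA on oligonucleotide probes carried on beads. The deposited description and labels gave 4 mice dosed with methanol at 120 mg/kg in a volume of 350 µl and 4 mice dosed with 350 µl of saline, with brains collected at 2 h. The methods described male BALB/c mice, an inbred strain, in groups of 5 that inhaled methanol or water vapor from cotton wool, so the route, dose and time of these arrays are uncertain. No age and no genotype beyond the strain was given. Xist, the RNA of the inactive X chromosome, was detected on all 8 arrays by both of its probes, which leaves the sex given for the mice in doubt. The methods called the replicates biological but described another exposure, and no source tied each array to a single mouse, so the p-values measure the spread between these arrays.

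The proteasome is the large protease that breaks down proteins tagged with ubiquitin. Its barrel-shaped core, the 20S particle, is a stack of alpha rings, which form the gate, and beta rings, which hold the proteolytic sites. The 19S regulatory particle binds ubiquitin chains, removes them, and unfolds the substrate with a ring of ATPases. Other caps, among them PA28 (Psme1 and Psme2), PA28 gamma (Psme3) and PA200 (Psme4), open the core without binding ubiquitin. When the proteasome is inhibited in mammalian cells, the transcription factor Nfe2l1 raises the mRNAs of many subunits together through antioxidant response elements (ARE) in their promoters. Neurons rely on the proteasome for the turnover of synaptic proteins, and damaged proteins are among its substrates.

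The promoters of the 3 member genes with the largest change on any single probe are shown, so that the start regions of these genes can be read beside their values. Each run holds 300 bases, from 250 bases before the start site to 50 after it, from RefSeq on the build GRCm38.p6, written 5′ to 3′ on the strand of the gene. Capitals mark a match to the ARE core letters TGACNNNGC, which were searched on both strands, and only Psme4 had one among these 3. Psme1 is among them through its probe with the lower signal, at -0.58, while its other probe gave -0.20, a smaller change than those of several other members.
Psme4 (chr11:30771525-30771824, plus strand): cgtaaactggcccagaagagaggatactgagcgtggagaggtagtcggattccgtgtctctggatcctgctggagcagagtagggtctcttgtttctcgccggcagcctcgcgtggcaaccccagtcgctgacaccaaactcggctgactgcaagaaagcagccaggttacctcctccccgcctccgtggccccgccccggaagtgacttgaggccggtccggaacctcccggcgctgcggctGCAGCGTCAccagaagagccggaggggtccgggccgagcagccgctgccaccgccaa
Psmd8 (chr7:29180624-29180923, minus strand): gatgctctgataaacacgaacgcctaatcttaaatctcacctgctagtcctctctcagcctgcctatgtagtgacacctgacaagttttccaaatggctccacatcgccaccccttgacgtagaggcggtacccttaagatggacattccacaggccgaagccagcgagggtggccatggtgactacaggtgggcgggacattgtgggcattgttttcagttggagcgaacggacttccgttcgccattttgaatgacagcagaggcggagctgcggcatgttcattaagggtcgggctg
Psme1 (chr14:55578244-55578543, plus strand): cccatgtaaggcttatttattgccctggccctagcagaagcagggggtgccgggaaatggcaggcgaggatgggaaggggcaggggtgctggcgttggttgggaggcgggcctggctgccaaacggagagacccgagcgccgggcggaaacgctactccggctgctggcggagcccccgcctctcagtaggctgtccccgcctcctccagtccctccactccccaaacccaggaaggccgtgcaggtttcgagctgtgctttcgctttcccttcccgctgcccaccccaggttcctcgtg

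A window was held for 36 of the 42 member genes, and these genes had 40 windows. The ARE core was found in 6 of the 40 windows (15%), against 4071 of all 32851 mouse promoter windows (12.4%). Apart from Psme4, the match lay in Psmb5, Psmb6, Psmc6, Psmd12 and Psmd9, which are printed with the match in capitals, on the strand that carries it, and up to 10 bases on either side.
Psmb5 (chr14:54618024-54618052, minus strand): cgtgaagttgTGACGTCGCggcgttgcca
Psmb6 (chr11:70525338-70525366, plus strand): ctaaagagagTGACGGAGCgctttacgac
Psmc6 (chr14:45329587-45329615, minus strand): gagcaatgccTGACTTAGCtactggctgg
Psmd12 (chr11:107479278-107479299, minus strand): ggggcaaatgTGACACAGCaga
Psmd9 (chr5:123228149-123228177, plus strand): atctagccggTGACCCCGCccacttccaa
Of these 6 genes only Psme4 passed the test between the groups. The other 5 had log2 changes from -0.26 for Psmb5 to 0.03 for Psmc6. The letters CCAAT, the box read by the factor NF-Y, were found on either strand in 14 member windows (35%) and in 12289 of all windows (37.4%). No member window held both motifs, and in the window of Psmd14 a CCAAT match on one strand overlapped one on the other. The GC content of the member windows had a median of 59%, against 52.7% over all windows. A match of these letters is a description of the window, not evidence of a binding site.

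The arrays had similar median intensities, and the probes detected ran from 11291 on methanol array 4 to 12366 on methanol array 1. The median un-normalized intensity was 179.5 to 193.7 on the methanol arrays and 175.6 to 195.8 on the saline arrays. After quantile normalization, arrays of the same group correlated at 0.981 to 0.989 over the compared probes, and arrays of different groups at 0.973 to 0.984. Marker genes checked the tissue and the other cells a whole brain can hold. The neuronal markers Syn1, Syt1, Rbfox3 and Stmn2 and all 6 astrocyte markers were detected, while the Snap25 and Tubb3 probes fell short of the detection limit. All 4 measured red cell markers (Hba-a1, Hbb-b2, Hbb-bt and Alas2) were lower after methanol, with a summed intensity of 5240 to 6445 on the methanol arrays and 17119 to 22604 on the saline arrays. Of 7 oligodendrocyte markers 2 were higher and 1 was lower (summed intensity 26441 to 37886 after methanol and 17629 to 26050 in saline), of 5 microglia markers 1 was lower (1395 to 1809 after methanol and 1819 to 2068 in saline), and of 3 choroid plexus markers 1 was lower (436 to 930 after methanol and 316 to 22438 in saline). None of the 3 endothelial markers passed the test, which 5.92% of all compared genes passed in either direction. In whole brain RNA, fewer cells of a type and less RNA per cell cannot be told apart, and the part of these cell types in the proteasome values was not tested.

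The comparison asked whether the mRNAs of the proteasome changed in the brain after methanol. Only 1 of the 54 member probes passed the test (1.85%), the single detected probe of Psme4, which was higher after methanol, and 0 probes were lower. The test was limma's moderated test with Benjamini-Hochberg adjustment over all 11938 probes and a threshold of 0.05. Among all probes 372 were higher (3.12%) and 297 were lower (2.49%). Without adjustment, 7 member probes had a p under 0.05 (13%), against 20.7% of all probes. The values of the groups did not overlap for 2 member probes (3.7%), those of Psme4 and Psmd8, against 12.4% of all probes. Leaving out any single array kept 1 probe higher, and scaling the arrays by their medians in place of quantile normalization left 0.

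The member probes moved little in either direction. Their log2 change, methanol minus saline, had a median of -0.03 and ran from -0.58 to 0.45, with 24 probes above zero and 30 below. The median over all probes was 0.00. The size of the change, without its sign, had a median of 0.0876 for the members and 0.133 for all probes. The distribution of the changes shows the members gathered closer to zero than the probes at large. The members also had a smaller spread within the groups (median SD 0.13 against 0.167). No comparison with probes of like signal was made. Only 2 member probes, those of Psme4 and one of 2 for Psme1, had a change of at least 1.3-fold (3.7%), against 9.67% of all probes.

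**Figure D1:**
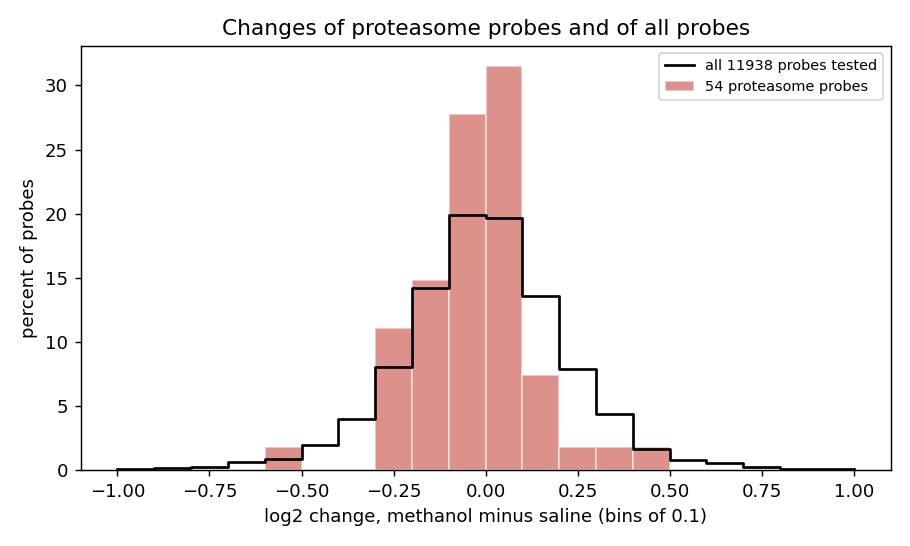
Percent of probes (vertical axis) by log2 change, methanol minus saline, in bins of 0.1 (horizontal axis), for the 54 proteasome probes (red bars) and all 11938 compared probes (black line). The member bars lie between -0.58 and 0.45, and their median of -0.03 lies beside the median of 0.00 over all probes, some of which fall outside the axis.

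The intervals show what these arrays could and could not separate from no change. The standard error of the difference had a median of 0.094 on the log2 scale for the members and 0.12 for all probes, and the spread within the groups a median SD of 0.13 and 0.167. For 36 member probes (66.7%) the whole 95% interval of the difference lay within a 1.3-fold change in either direction, that is, within 0.38 on the log2 scale, against 41.8% of all probes. This share was not compared with that of probes of like signal. No member interval reached a 2-fold change. The lowest bound of any member was -0.93 and the highest was 0.65.

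**Figure D2:**
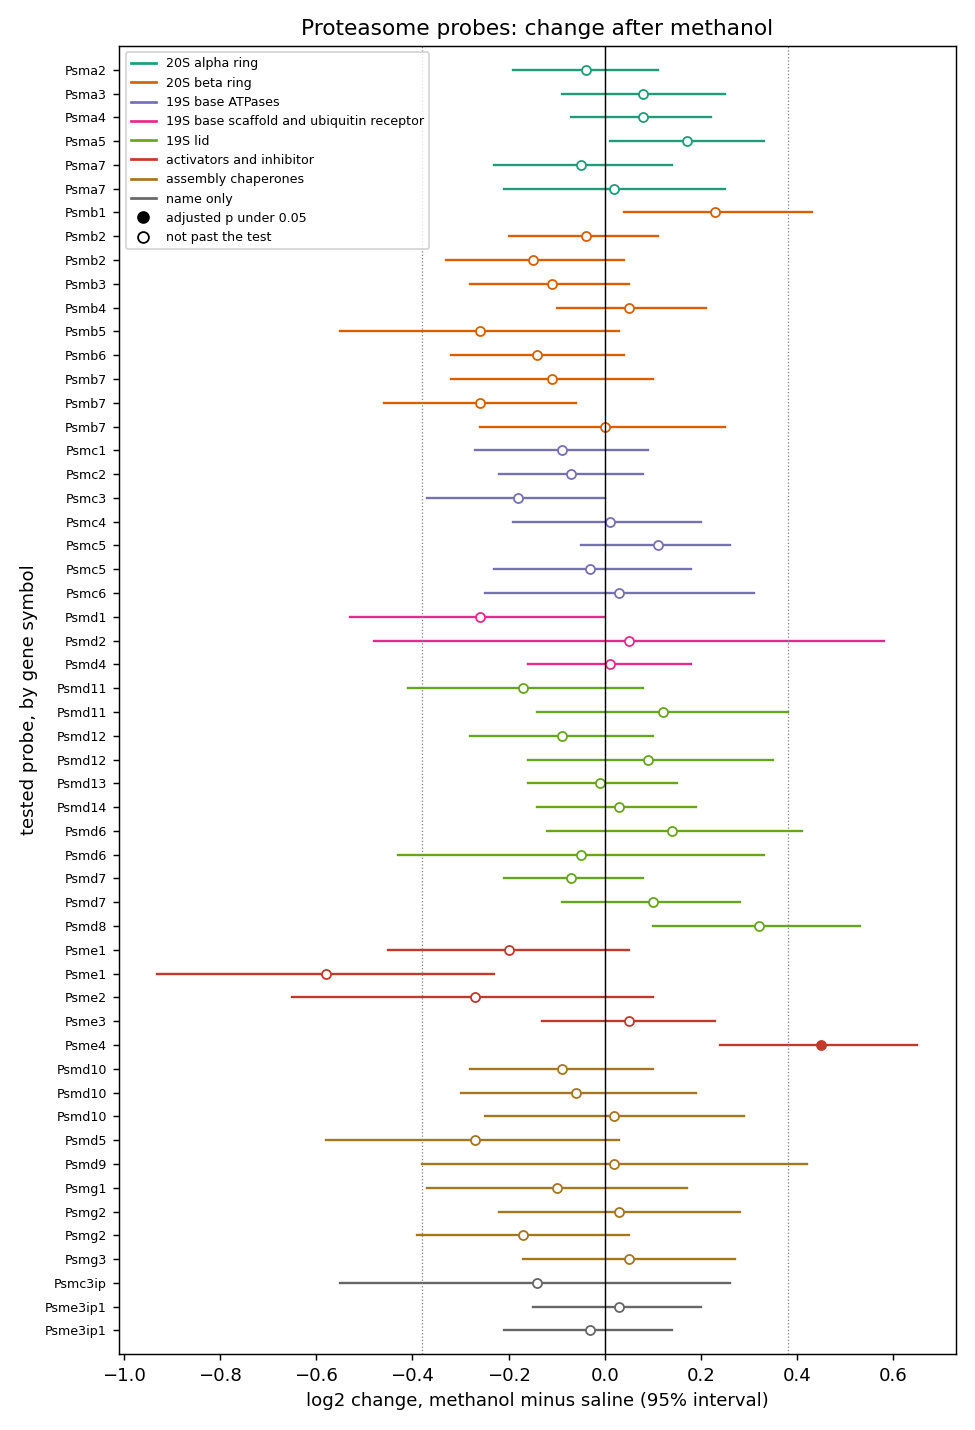
Log2 change, methanol minus saline (horizontal axis), of each of the 54 compared probes (rows, named by gene and colored by role), with the 95% interval as a line and dotted lines at a 1.3-fold change. The filled point is Psme4 at 0.45, the only probe past the test, and the point farthest to the left is a Psme1 probe at -0.58.

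Psme4 encodes PA200, a large single-chain cap of the core found mostly in the nucleus, known for its part in the loss of histones in male germ cells. Its probe ILMN_2947187 had log2 intensities of 9.01, 8.81, 8.70 and 8.71 on the methanol arrays, against 8.42, 8.46, 8.24 and 8.33 on the saline arrays. All methanol values lay above all saline values, and the groups likewise did not overlap, in either direction, for 12.4% of all probes. The means were 8.81 ± 0.15 after methanol and 8.36 ± 0.099 in saline (SD, n = 4 each). The log2 change was 0.45 (SE 0.095, 95% interval 0.24 to 0.65), which is 1.36-fold, with an adjusted p of 0.0129 by limma. The exact two-sided permutation test of this probe alone gave p = 0.0286, the smallest value that 4 arrays against 4 can give. The change was as large under median scaling (0.45), where its adjusted p was 0.187. A second probe of the gene, ILMN_1230087, was detected on 1 array and gave no comparison.

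Psme1 and Psme2 encode the alpha and beta chains of PA28, a ring that opens the core and that interferon gamma induces. Psme1, like some other members given with values, was outside the rule that chose the named genes. Its probes did not differ in direction or call, and it was taken up after its values were seen. Its probe with the lower signal, ILMN_2671204, had log2 intensities of 7.01, 7.46, 7.40 and 6.83 after methanol, against 7.34, 7.78, 7.97 and 7.92 in saline. The groups overlapped through saline array 1, which lay below methanol arrays 2 and 3. The log2 change was -0.58 (SE 0.16) with an adjusted p of 0.053 by limma, and several other settings placed it past the threshold, among them the omission of background correction (-0.31, adjusted p = 0.0474). Without saline array 1 the adjusted p was 0.00928 (log2 change -0.72), and without methanol array 2 it was 0.0389 (log2 change -0.67). Each of the other arrays left out in turn gave an adjusted p from 0.0591 to 0.153.

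The probe of Psme1 with the higher signal, ILMN_2986309, had log2 intensities of 8.66, 8.78, 8.79 and 8.91 after methanol, against 8.72, 8.79, 9.21 and 9.22 in saline. On this probe only saline arrays 3 and 4 lay above the methanol range. Its log2 change was -0.20 (SE 0.12) with an adjusted p of 0.363 by limma. Psme2 had 6.10, 5.82, 5.59 and 5.32 after methanol, against 6.03, 6.10, 6.08 and 5.71 in saline. Its log2 change was -0.27 (SE 0.18) with an adjusted p of 0.413 by limma, and the groups overlapped. The Psme2 signal was near background, detected on 3 of the 4 methanol arrays and all 4 saline arrays. Without background correction its change was -0.079. Psme3, whose product PA28 gamma is a nuclear cap that interferon does not induce, had a log2 change of 0.05 (95% interval -0.13 to 0.23).

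**Figure D3:**
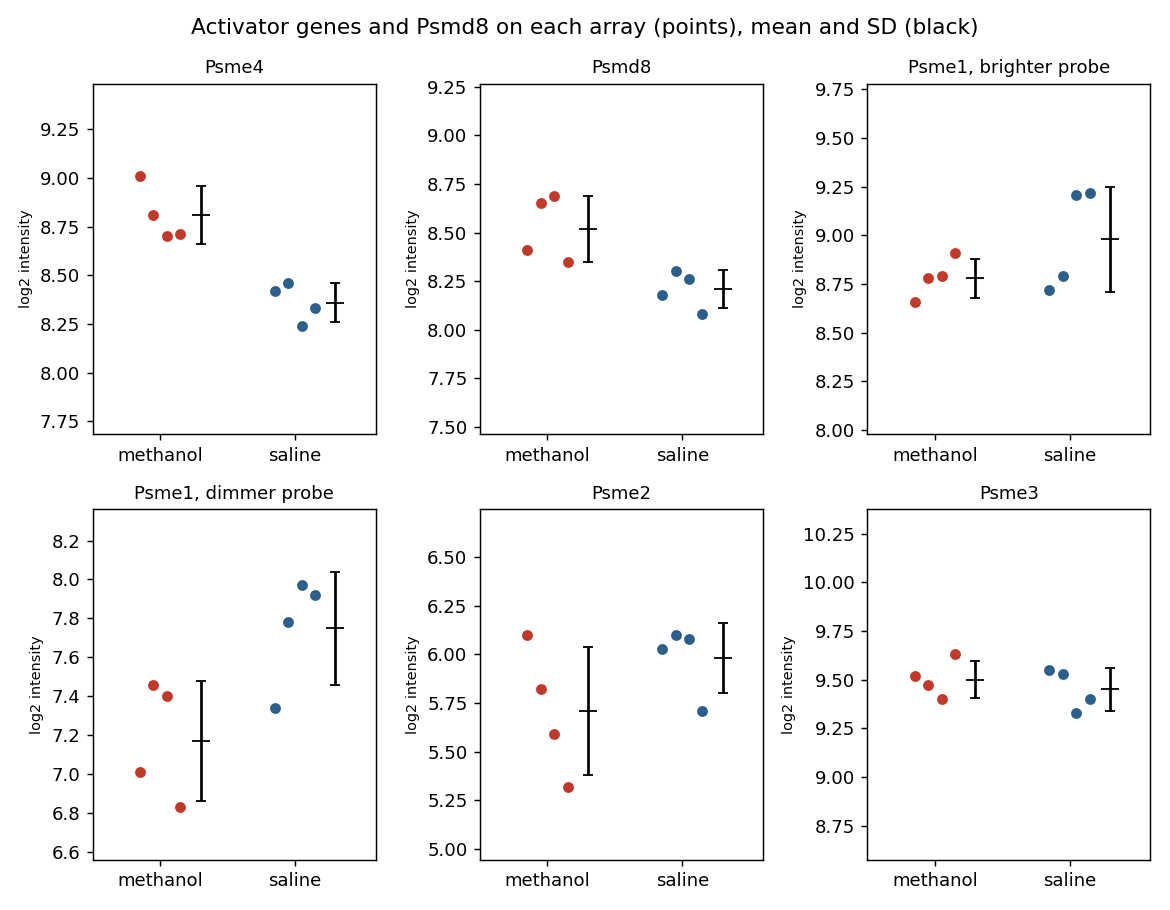
Log2 intensity (vertical axis, 1.8 units in every panel) on each array for the activator genes and Psmd8, with methanol arrays in red on the left, saline arrays in blue on the right, and the mean and SD in black. The methanol and saline points are apart for Psme4 and Psmd8 and overlap in the other 4 panels.

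Psmd8 encodes a lid subunit of the regulatory particle, known as Rpn12 in yeast. Its probe ILMN_2678019 had log2 intensities of 8.41, 8.65, 8.69 and 8.35 on the methanol arrays, against 8.18, 8.30, 8.26 and 8.08 on the saline arrays. The groups did not overlap, as for 12.4% of all probes, with the lowest methanol value 8.35 and the highest saline value 8.30. The log2 change of 0.32 (SE 0.10, 95% interval 0.10 to 0.53) had an adjusted p of 0.0824 by limma and did not pass the test. The exact two-sided permutation test of this probe alone gave p = 0.0286, the value of every probe whose groups do not overlap. It stayed short of the threshold under all alternatives run, with adjusted p-values from 0.051 to 0.405.

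The 28 compared genes of the core and the regulatory particle, each read on its probe with the highest signal, gave 0 calls by limma, against 5.92% of all 8528 compared genes in either direction. Of the 28 genes, 4 had an unadjusted p under 0.05 (14.3%), against 21.2% of all genes. Their log2 changes ran from -0.26 to 0.32 with a median of -0.02, and 13 lay above zero and 15 below. The bounds of their intervals ran from -0.55 to 0.58, and the interval lay within a 1.3-fold change for 21 of the 28 (75%), against 44.6% of all genes. Genes of like signal were not compared apart.

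In the alpha ring, which gates the core, 5 genes were compared. Their log2 changes ran from -0.05 to 0.17 with a median of 0.08, and all 5 intervals lay within a 1.3-fold change. Psma5 stood highest in this ring, with log2 intensities of 11.72, 11.52, 11.77 and 11.67 after methanol, against 11.37, 11.59, 11.53 and 11.51 in saline. Methanol array 2 lay within the saline range, and the log2 change of 0.17 (SE 0.077) had an adjusted p of 0.226 by limma. Psma7 was lowest at -0.05 (SE 0.086), and its other probe gave 0.02.

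In the beta ring 7 genes were compared, with log2 changes from -0.26 to 0.23 and a median of -0.11, and 5 of the 7 below zero. This ring holds the catalytic subunits Psmb5 (chymotrypsin-like), Psmb6 (caspase-like) and Psmb7 (trypsin-like). Psmb5 had 6.37, 6.46, 6.40 and 6.66 after methanol, against 6.59, 6.89, 6.97 and 6.50 in saline. Methanol array 4 lay above 2 of the saline arrays, and the log2 change of -0.26 (SE 0.14) had an adjusted p of 0.289 by limma. Psmb6 had a change of -0.14 (SE 0.084). The 3 probes of Psmb7 gave -0.11, -0.26 and 0.00, and the one at -0.26 (SE 0.094) had an unadjusted p of 0.0138 and an adjusted p of 0.123 by limma.

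Psmb1, a beta subunit without a proteolytic site, stood at the other end of the ring. Its log2 intensities were 9.43, 9.68, 9.55 and 9.66 after methanol, against 9.42, 9.31, 9.16 and 9.50 in saline. Of the methanol arrays only array 1 fell below the highest saline value. The log2 change was 0.23 (SE 0.092) with an adjusted p of 0.169 by limma.

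The 6 ATPases of the base, which unfold substrates, were all compared and had log2 changes from -0.18 to 0.11 with a median of -0.03. Psmc3 was lowest, with 9.28, 9.31, 9.32 and 9.51 after methanol, against 9.60, 9.42, 9.49 and 9.66 in saline. Methanol array 4 lay within the saline range, and the change of -0.18 (SE 0.085) had an adjusted p of 0.233 by limma. Psmc5 was highest at 0.11 (SE 0.072), while its other probe gave -0.03. The interval of Psmc6, one of the genes with the ARE core, ran from -0.25 to 0.31.

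Of the scaffold and receptor subunits of the base, Psmd1 had a log2 change of -0.26 (SE 0.12, adjusted p = 0.251 by limma). Its values were 7.03, 7.20, 6.91 and 6.65 after methanol, against 7.32, 7.17, 7.24 and 7.13 in saline, and only methanol array 2 lay within the saline range. Psmd2, the partner scaffold, was detected on 4 of the 8 arrays and had the widest interval of the members on this scale, from -0.48 to 0.58. Psmd4, a ubiquitin receptor, had a change of 0.01 (95% interval -0.16 to 0.18).

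The lid, which carries the deubiquitinase Psmd14, had 7 compared genes with log2 changes from -0.17 to 0.32 and a median of -0.01. Psmd8 was the highest and Psmd11 the lowest. Psmd11, whose raised level has been linked to higher proteasome activity in human stem cells, gave -0.17 (SE 0.11) on one probe and 0.12 (SE 0.12) on the other. Psmd14 had a change of 0.03 (95% interval -0.14 to 0.19).

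The chaperones that assemble the core and the base had 6 compared genes with log2 changes from -0.27 to 0.05. In limma 0 passed the test, against 5.92% of all compared genes. An unadjusted p under 0.05 was found for 0 of the 6, against 21.2% of all genes. With 6 genes, these counts do not set the chaperones apart from genes at large. Psmd5, a chaperone of the base, was lowest at -0.27 (SE 0.14, adjusted p = 0.289 by limma). Without background correction its change was -0.083. Its values were 5.92, 5.72, 5.72 and 6.12 after methanol, against 6.19, 6.0, 6.13 and 6.25 in saline, and only methanol array 4 lay above a saline value. Psmg3, of the core chaperones, was highest at 0.05 (SE 0.10), and Psmg2 gave 0.03 and -0.17 on its 2 probes.

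Psmc3ip and Psme3ip1 matched the rule by name alone, since they encode partners of proteasome proteins and not subunits. Psmc3ip, a factor of meiotic recombination, had a log2 change of -0.14 (SE 0.19). Psme3ip1, a partner of PA28 gamma, gave 0.03 and -0.03 on its 2 probes. Leaving both genes out kept 1 probe higher and 0 lower.

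Several genes were read by more than 1 probe, which shows how far the probes of a gene differed. Such probes also differed in signal, and whether they read the same transcripts was not checked. Of the 12 genes with at least 2 compared probes, 9 had probes on both sides of zero. The gap between the probes of a gene ran from 0.06 for Psma7 and Psme3ip1 to 0.38 for Psme1. For Psmd11 the gap was 0.29, for Psmb7 0.26, for Psmd6 0.19 and for Psmd12 0.18. The size of the change between the groups had a median of 0.0876 over the member probes. Psme4 and Psmd8 each rested on 1 compared probe.

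The members were also set beside each other on single arrays. For each probe the saline mean was subtracted, and the median over the 54 probes was taken on each array. It was 0.0664, -0.0941, -0.0601 and -0.0202 on the methanol arrays, against 0.0391, -0.0186, -0.0193 and 0.00312 on the saline arrays. The methanol arrays lay on both sides of the saline arrays, with methanol array 1 highest and methanol array 2 lowest. With each probe's mean over all 8 arrays subtracted instead, the medians of arrays of the same group had an SD of 0.0532. The median change between the groups was -0.03. The SD describes single arrays and is not the error of this change, which was not estimated.

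**Figure D4:**
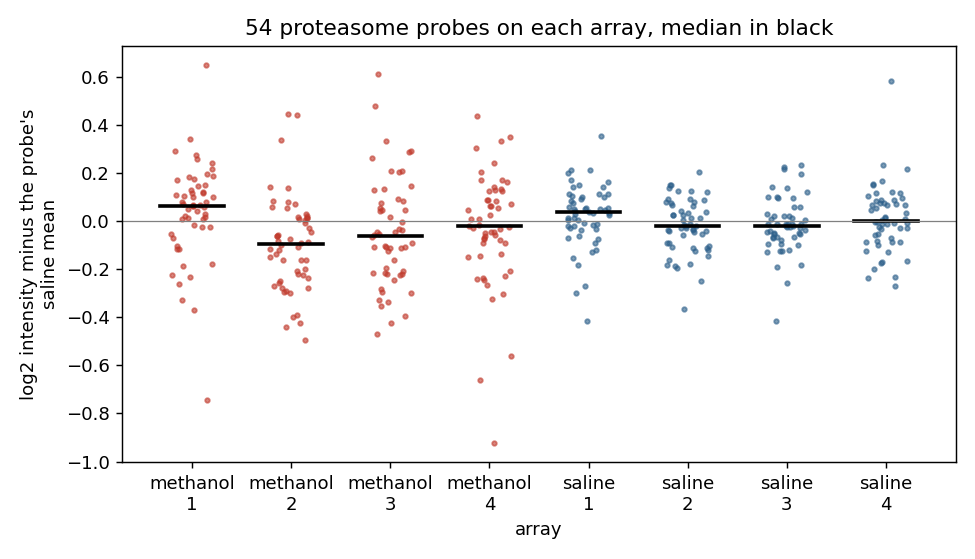
Log2 intensity minus the saline mean of the same probe (vertical axis) for the 54 proteasome probes on each array (horizontal axis), methanol arrays in red and saline arrays in blue, with the median of each array as a black bar. The medians run from -0.0941 to 0.0664 on the methanol arrays and from -0.0193 to 0.0391 on the saline arrays.

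Genes that work with the proteasome under other names were counted for comparison. Of the immunoproteasome subunits, Psmb8 was detected on 3 arrays, all of them saline, and Psmb9 on 0, so neither was compared. Psmb8 had log2 intensities of 5.17, 5.40, 5.19 and 4.83 after methanol, against 5.52, 5.27, 5.53 and 6.04 in saline, values near background. Psmb10 gave 0.00 (SE 0.11) and -0.15 (SE 0.092) on its 2 probes. Of the 6 compared proteasome proteins with other symbols, 0 passed the test in limma, against 5.92% of all compared genes. An unadjusted p under 0.05 was found for 1 of the 6, against 21.2% of all genes. This was the deubiquitinase Uchl5, with a probe at 0.34 (limma, unadjusted p = 0.00786, adjusted p = 0.0888). Its other probes gave -0.08 and 0.02. The core assembly factor Pomp had a change of 0.02 and the deubiquitinase Usp14 one of 0.03.

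Among 6 compared genes that deliver substrates, 1 was lower after methanol and 0 were higher, against 5.92% of all compared genes in either direction. The other 5 did not pass the test. The gene that was lower was Vcp, the ATPase that pulls ubiquitin-tagged proteins out of complexes and membranes and hands them to the proteasome. Its log2 intensities were 10.84, 10.82, 11.01 and 10.85 after methanol, against 11.31, 11.31, 11.25 and 11.29 in saline. All methanol values lay below all saline values. Groups that did not overlap, in either direction, were found for 12.4% of all probes. The log2 change was -0.42 (SE 0.070), which is 0.75-fold, with an adjusted p of 0.00263 by limma, and under median scaling it was -0.41 with an adjusted p of 0.144. The 3 compared probes of Ubqln1, a shuttle of ubiquitin-tagged proteins, gave -0.15, 0.11 and -0.11, and none of these passed the test.

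Of 9 genes with a probe in the pathway through which Nfe2l1 controls the proteasome genes, 5 were compared. On the probe with the highest signal 0 passed the test in limma, against 5.92% of all compared genes. An unadjusted p under 0.05 was found for 0 of the 5, against 21.2% of all genes. With 5 genes, these counts do not set the list apart from genes at large. Nfe2l1 itself had log2 intensities of 11.62, 11.27, 11.28 and 11.28 after methanol, against 11.34, 11.13, 11.22 and 11.05 in saline. The groups overlapped, and the change of 0.18 (SE 0.092) had an adjusted p of 0.287 by limma. Sqstm1, an autophagy receptor of ubiquitin-tagged proteins, had a change of 0.05 (SE 0.090).

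The values of Psme4, Psmd8 and Psme1 across the processing settings show how firmly each stood. Psme4 stayed above zero in all of them, with log2 changes from 0.32 to 0.48, and past the threshold in all but median scaling. Psmd8 stayed above zero and past none. The Psme1 probe stayed below zero throughout, on either side of the threshold.

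**Figure D5:**
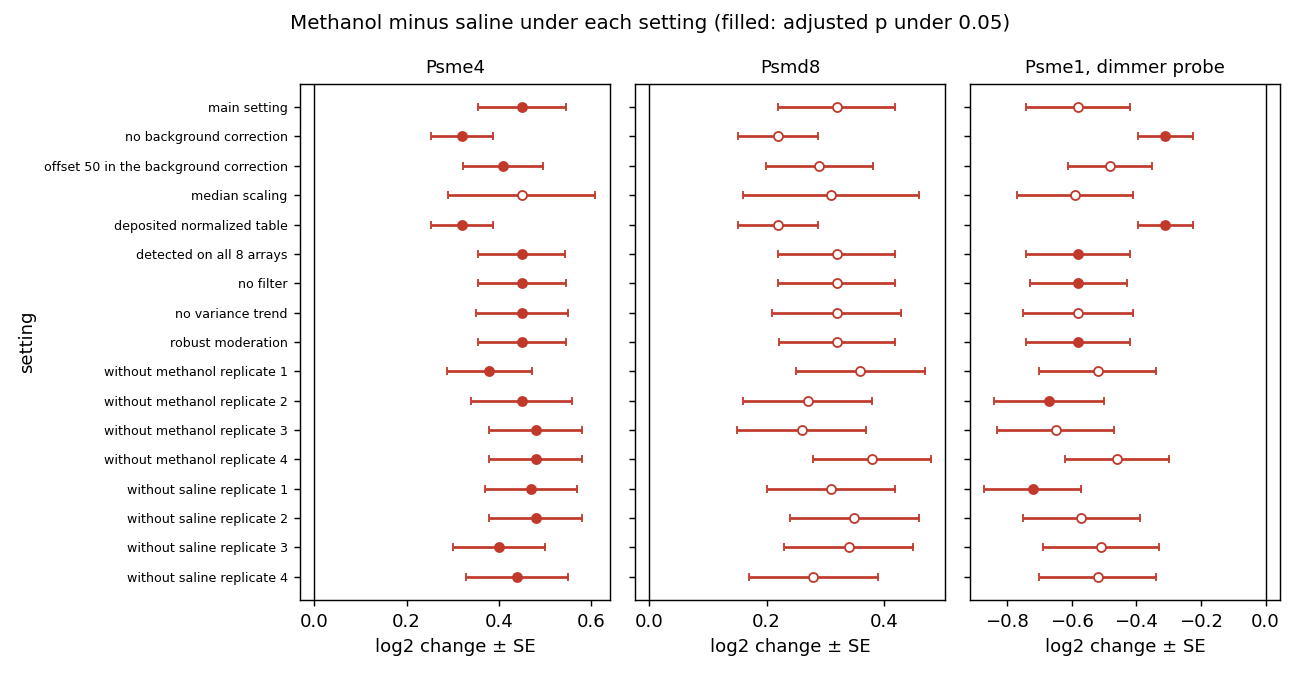
Log2 change, methanol minus saline, with its standard error (horizontal axis) under most of the processing settings (rows). Shown are Psme4, Psmd8 and the Psme1 probe with the lower signal, filled where the adjusted p was under 0.05. The settings with the replicate block, an added fold limit, averaged probes or without the genes matched by name alone are not drawn. Psme4 lies between 0.32 and 0.48 and is open only under median scaling, Psmd8 is open in every row, and Psme1 is filled in some rows.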

How the data were processed

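Gene expression was measured on 4 methanol and 4 saline arrays. The authors extracted total RNA with Trizol, read the arrays with BeadScan and GenomeStudio. The deposited intensity values came in one table of un-normalized intensities, which was the start here, and in another of intensities already normalized between arrays, kept as an alternative. The deposited detection p-value of each probe and array marks signal above background. Intensities were background-corrected by normexp with the detection p-values and an offset of 16, quantile-normalized and put on the log2 scale with neqc of limma 3.58.1 in R 4.3.3. Linear models with eBayes and a variance trend gave methanol minus saline, with Benjamini-Hochberg adjustment over all 11938 probes detected on at least 4 arrays. The code was tested on simulated data.

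A symbol was given by the platform annotation for 23978 probes and was missing for 1719. For a gene with several probes, counts per gene used the probe with the highest mean signal. Named genes were those past the test, the highest and lowest of each role, and those whose probes differed in direction. Psmb6, Psmb7, Psmc6, Psmd4, Psmd14, Psme1 and Psme3 were given values outside this rule. So were single genes of the other lists, such as Vcp, for which the plan set only counts and medians. The members, lists and rules were chosen with earlier results of these data known. Replicate numbers were not taken as pairs, since no label said whether they paired the arrays. Precision was limited by the 4 arrays of a group. Promoter windows were searched in Python 3.11.15. Alternatives are given in the closing section.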

Additional observations from a re-analysis of the deposited data

Results flagged for a closer look

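The spread of the 4 arrays of a group was examined for 48 groups, namely the named members, the Psme1 probe with the lower signal, Vcp and the median over the members. On log2 values rounded to 2 decimals, a single array stood apart in 2 of the 48 groups, where chance gives about 1 in 20. For Psmg2 the value on saline array 2 was 8.12, while the other saline arrays lay between 8.25 and 8.27. At a finer rounding its saline arrays deviated from their mean by 0.037, -0.105, 0.021 and 0.047. These values put the gap at the limit of the rule, so the flag for Psmg2 depends on the rounding. For Vcp the value on methanol array 3 was 11.01, while the other methanol arrays lay between 10.82 and 10.85, all below the saline values.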

How the results depend on the processing

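The counts of member probes and genes, their median and the named genes were recomputed under the alternatives. Under median scaling 0 member probes and 0 member genes were higher after methanol, and Psme4 (0.45, adjusted p = 0.187) and Vcp (-0.41, adjusted p = 0.144) lost their calls. Median scaling also lowered the calls over all probes to 161 higher and 168 lower. Member probes lower after methanol numbered 1, in each case the Psme1 probe, with no background correction, in the deposited normalized table, with probes detected on all 8 arrays, with no filter, with robust moderation and with the replicate block. Its adjusted p ranged from 0.0108 to 0.102 over these and the other settings and from 0.00928 to 0.153 without 1 array. Leaving out 1 array at a time kept 1 probe and 1 gene higher and gave 0 to 1 probes and 0 genes lower, with the median change from -0.063 to -0.014, and Psme4 stayed past the threshold with adjusted p-values from 0.0136 to 0.0488. The other settings gave medians from -0.031 to -0.009. Without background correction the changes of Psmb5 (-0.107), Psmd1 (-0.122) and Psme2 (-0.079) were also smaller in size.

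Same-numbered arrays of the 2 groups correlated at 0.185, -0.109, -0.013 and 0.25 in their deviations, and differently numbered ones at -0.224 to 0.196. The numbers were not taken as pairs, and whether they mark a shared batch is not known. The fit with the replicate block gave 1 member probe higher and 1 lower, with 477 probes higher and 483 lower over all. The Psme1 probe had an adjusted p of 0.0108 in that fit. Averaging the probes of a gene turned the sign of Psmd12 (0.002), Psmd7 (0.015), Psme3ip1 (-0.005) and Psmg2 (-0.07). Leaving out 1 array turned the sign of Psma7 (-0.098 to 0.03), Psmd2 (-0.14 to 0.244), Psme3ip1 (-0.006 to 0.07), Psmg2 (-0.075 to 0.134) and Psmg3 (-0.006 to 0.092), all within their error. The causes were not tested. Arrays left out were left out of the test and not of the normalization.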
